A study of Mus musculus with 2 samples.

Results

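Integrins are pairs of one α and one β chain that cross the cell membrane, and the genes described here encode the chains known mainly from leukocytes and platelets. The 9 genes were taken by name as the 4 α chains that pair with β2 (Itgal, Itgam, Itgax and Itgad), the β2 chain itself (Itgb2), the α4 chain (Itga4), the β7 chain (Itgb7), the αE chain (Itgae) and the platelet αIIb chain (Itga2b). All 9 were found among 38320 gene entries, each as 1 entry, and all 9 had a mean of at least 1 FPKM (a level per length of transcript and per fragment mapped in the library), as did 12861 genes in all. Itgae reached that mean only through the knockout library.

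Leukocytes keep most of their integrins in a bent, inactive form. Signals from inside the cell, through Rap1, talin and kindlin-3, switch them to a form that binds ligands such as the ICAMs, VCAM-1, fibronectin and fibrinogen, and bound integrins signal back through kinases such as Syk. In injured liver these receptors are known for holding monocytes, neutrophils and lymphocytes to the sinusoidal wall, while αIIb with β3 is the fibrinogen receptor of platelets.

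The study compared liver cells of adult male C57/Bl6 mice given carbon tetrachloride (CCl4), a hepatotoxin, for 5 weeks to produce fibrosis. Control mice were Foxf1 fl/fl, and knockout mice were αSMACreER;Foxf1 fl/fl, so both carried the floxed alleles of Foxf1, a forkhead transcription factor, and the knockout added a tamoxifen-inducible Cre driven by the smooth muscle actin promoter. That promoter is active in myofibroblasts and smooth muscle, and tamoxifen was given during the injury. Foxf1 itself was not analysed here. Cells that adhered to plastic within 2 hours were collected, and RNA was pooled into 1 library per genotype.

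With 1 library per genotype there was no replicate check, so no test between genotypes was possible and a difference of at least 1.5-fold is described as higher or lower. Fold changes are knockout over control on the scale of log2(FPKM + 0.1), after dividing the knockout values by a median ratio of 1.02. Intervals are approximate 95% counting intervals from about 9595000 control and 11330000 knockout reads, a number inferred from the steps between the lowest FPKM values. That estimate is rough, since 47.0% and 50.3% of those values lay within 0.1 of a whole read. The intervals cover counting error only. Although the cells were labelled stromal, 12 macrophage and Kupffer cell markers summed to 10306 FPKM in the control and 8742 FPKM in the knockout, against 305 and 435 FPKM for 10 stellate cell and myofibroblast markers. Desmin (Des) was at 1.70 and 3.29 FPKM and smooth muscle actin (Acta2) at 7.77 and 5.65 FPKM.

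Of the 9 integrin genes, Itga4 and Itgam were higher in the knockout and Itgad was lower. Among all 12861 genes, 26.1% differed by at least 1.5-fold, with 12.9% higher and 13.2% lower, against 2 higher and 1 lower among the 9 members. With both libraries scaled to an equal FPKM sum, 21.9% of all genes were higher and 8.72% lower, against 4 higher and 0 lower among the members. Those 4 included Itgae, which reached a mean of 1 FPKM only through the knockout library. The median log2 difference of the members was 0.29, against 0.0058 for all genes, and their summed level was 450.7 FPKM in the control and 566.4 FPKM in the knockout. Counting intervals lay above 0 for 5 members, below 0 for 1 and across 0 for 3. The share of all genes with such intervals was not counted, so these numbers do not set the members apart. In bulk libraries, fewer cells of a type and less RNA per cell cannot be told apart, and this holds for each value given here.

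**Figure D1:**
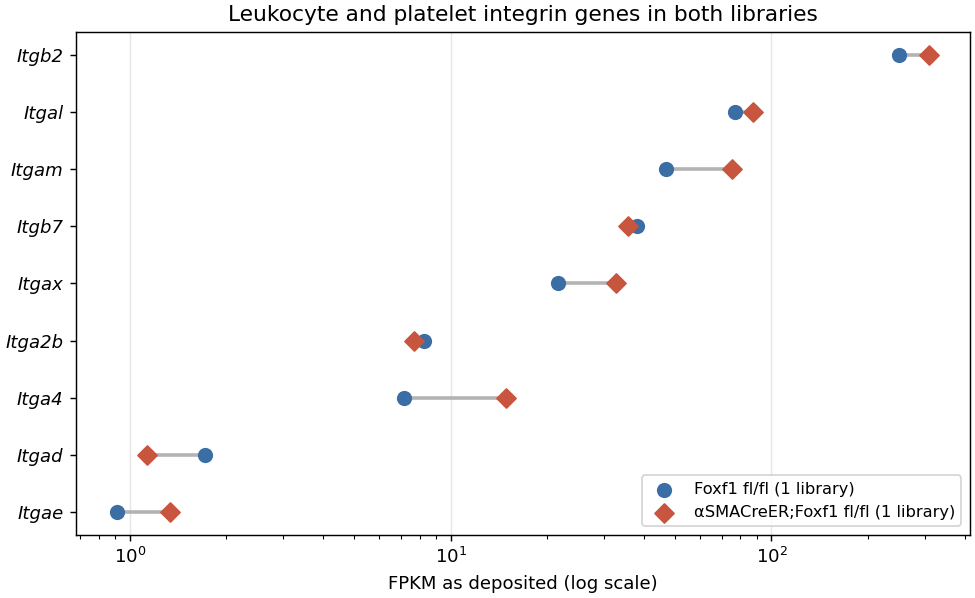
FPKM of the 9 integrin genes in the control and knockout libraries, 1 point per library, on a log axis. Itgb2 was at the top in both libraries (249 and 310 FPKM), and Itgad and Itgae were at the bottom.

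In the control the levels ran from Itgb2 through Itgal, Itgam, Itgb7, Itgax, Itga2b, Itga4 and Itgad to Itgae. In the knockout Itga4 stood above Itga2b and Itgae above Itgad, with the other places kept. Itgb2 exceeded 96.6% of the tested genes in the control and 97.5% in the knockout, whereas Itgae exceeded 2.93% and 5.97%. The low members rested on few reads, about 32 and 55 for Itgae and 64 and 50 for Itgad.

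Promoter sequence is shown for the genes that were higher in the knockout, Itgam and Itga4, and for Itgb7, which differed little, so that they can be read side by side. RefSeq (GRCm38.p6) promoters were matched for 5 of the 9 members, and each window holds the 250 bases before the RefSeq start, 5′ to 3′ on the gene's strand. For Itga2b most of the window lies inside the gene as positioned here, so it is not shown. The Itgb7 and Itgax windows also reach into their genes, by a few bases. Capitals mark matches to the purine-rich core GAGGAA, bound by ETS factors such as PU.1, or the RUNX core TGTGGT, searched on both strands, so that TTCCTC and ACCACA are the same cores read on the other strand. The Itgam window is chr7:128062390-128062639 (plus strand), that of Itga4 is chr2:79255176-79255425 (plus strand) and that of Itgb7 is chr15:102231936-102232185 (minus strand).
Itgam: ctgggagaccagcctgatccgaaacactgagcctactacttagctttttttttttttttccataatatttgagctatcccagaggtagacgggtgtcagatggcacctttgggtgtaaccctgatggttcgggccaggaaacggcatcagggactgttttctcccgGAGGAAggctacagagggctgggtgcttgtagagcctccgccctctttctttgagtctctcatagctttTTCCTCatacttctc
Itga4: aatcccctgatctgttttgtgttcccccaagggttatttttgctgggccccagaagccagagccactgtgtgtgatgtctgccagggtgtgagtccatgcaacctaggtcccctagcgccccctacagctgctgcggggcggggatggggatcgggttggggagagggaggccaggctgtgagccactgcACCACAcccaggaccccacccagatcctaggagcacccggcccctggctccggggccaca
Itgb7: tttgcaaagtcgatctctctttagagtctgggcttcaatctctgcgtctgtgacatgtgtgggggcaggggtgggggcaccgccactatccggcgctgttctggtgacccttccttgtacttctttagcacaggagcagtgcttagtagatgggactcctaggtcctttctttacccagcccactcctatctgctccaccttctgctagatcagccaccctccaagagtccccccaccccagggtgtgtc

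The Itgam window held the purine-rich core at 84 to 79 bases and again, on the other strand, at 15 to 10 bases before the start. That core was present in 23.3% of 32851 promoter windows. The Itga4 window held 1 RUNX core, 60 to 55 bases before the start, and 14.0% of windows had one. The Itgb7 and Itgax windows held neither core. In the Itga2b window, not shown, the purine-rich core lay at 126 to 121 and at 44 to 39 bases before the start. The forkhead core TAAACA, present in 12.0% of windows, was in none of the 5 member windows, which says only that these letters are absent there.

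Itgb2 (ENSMUSG00000000290, chr10:77530252-77565708, plus strand, GRCm38 as are all positions here) encodes CD18, the β chain shared by the leukocyte-restricted integrins. It was at 249 FPKM in the control and 310 FPKM in the knockout, a log2 difference of 0.29 (0.24 to 0.33), short of 1.5-fold. The ratio of Itgb2 to the sum of its 4 α chains was 1.69 in the control and 1.57 in the knockout.

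Itgal (ENSMUSG00000030830, chr7:127296260-127335138, plus strand) encodes CD11a, the α chain of LFA-1, which binds ICAMs on lymphocytes and most other leukocytes. Its level was 77.0 FPKM in the control and 87.6 FPKM in the knockout, a log2 difference of 0.16 (0.099 to 0.22). The α chain with the highest level in both libraries therefore stayed well short of 1.5-fold.

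Itgam (ENSMUSG00000030786, chr7:128062640-128118491, plus strand) encodes CD11b, the α chain of Mac-1 on monocytes, macrophages and neutrophils. It was higher in the knockout, at 75.6 FPKM against 46.9 FPKM, a log2 difference of 0.66 (0.59 to 0.74) or 1.58-fold, and 0.46, short of 1.5-fold, with the trend over transcript length in all genes removed. The deposited locus of Itgam ran on to base 128128160, the end of the overlapping same-strand gene Gm49368, which has no entry of its own. Of 4608 windows of 75 bases along the longest Itgam transcript, 3303 (71.7%) also occur in Gm49368, so reads from those windows fit both genes. The part of Gm49368 in the Itgam value was not tested.

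Itgax (ENSMUSG00000030789, chr7:128129547-128150657, plus strand) encodes CD11c, known from dendritic cells and also carried by some macrophages. Its level was 21.7 FPKM in the control and 32.7 FPKM in the knockout, a log2 difference of 0.57 (0.44 to 0.69). At 1.48-fold it fell just short of the threshold.

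Itgad (ENSMUSG00000070369, chr7:128154376-128223816, plus strand) encodes CD11d, a chain known from tissue macrophages. It was at 1.72 FPKM in the control and 1.13 FPKM in the knockout, a log2 difference of −0.59 (−1.12 to −0.057). It was just past the threshold, and its interval reached close to 0. Scaled to an equal FPKM sum, its log2 difference was −0.40, no longer past the threshold. Of 4031 windows along the longest Itgad transcript, 557 (13.8%) were shared with other genes, 240 of them with Itgax. A gene within Itgad on the opposite strand, which shares no such window with it, stood above Itgad in both libraries. Its level too was smaller in the knockout than in the control, and its part in the Itgad value was not tested.

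Itgam, Itgax and Itgad are neighbours on chromosome 7, with 11055 bases between Itgam and Itgax and 3718 bases between Itgax and Itgad. Itgad differed in the opposite direction to both. The log2 change of its ratio to Itgax was −1.20 (−1.75 to −0.65) and that of its ratio to Itgam was −1.30 (−1.84 to −0.76). The ratio of Itgax to Itgam differed between libraries by a log2 value of −0.095, and its interval (−0.24 to 0.053) included 0. Such ratios within a library do not depend on how the libraries were scaled to each other.

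**Figure D2:**
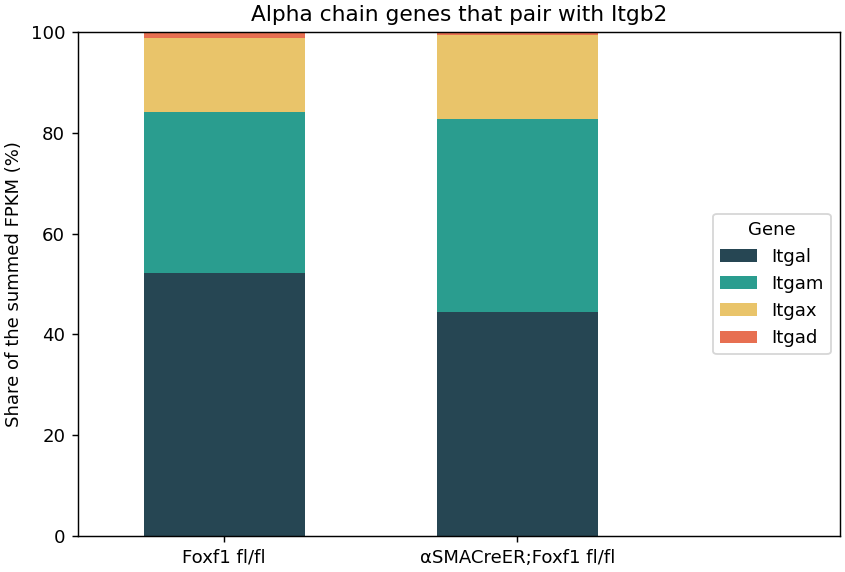
Share of each α chain in the summed FPKM of Itgal, Itgam, Itgax and Itgad, in percent, for the control and the knockout library. Itgal held 52.3% in the control and 44.5% in the knockout, and Itgam held 31.8% and 38.4%.

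Among the 4 partners of β2, the summed level was 147 FPKM in the control and 197 FPKM in the knockout. Itgal made up 52.3% of it in the control and 44.5% in the knockout, while Itgam made up 31.8% and 38.4%. Itgax held 14.7% and 16.6%, and Itgad held 1.17% and 0.572%. The mix of α chains thus differed between the libraries in favour of Itgam, and the log2 change of the ratio of Itgam to Itgal was 0.50 (0.40 to 0.60).

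Markers of the cells that carry β2 integrins were read beside these values. Of 12 neutrophil markers, 10 were lower in the knockout and none was higher, and their sum was 2378 FPKM in the control and 986 FPKM in the knockout. S100a8 was at 625 and 256 FPKM and S100a9 at 1258 and 504 FPKM, while Ly6g was at 9.82 FPKM and listed at 0. Among the lower markers, Ly6g and Elane (5.60 and 0.669 FPKM) reached a mean of 1 FPKM only through the control library. Csf3r (48.4 and 53.6 FPKM) and Cxcr2 (1.55 and 1.88 FPKM) were the markers that were not lower. Itgam, which neutrophils carry, was higher in the library with the lower neutrophil sum, and the part of neutrophils in its value was not tested.

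Of 8 monocyte markers, Fn1 and Cx3cr1 were higher in the knockout and none was lower. Fn1 is also counted among the ligands below. The monocyte markers had a median log2 difference of 0.42 and sums of 1488 and 1708 FPKM. Ly6c2 was at 166 and 234 FPKM, Ccr2 at 6.06 and 9.09 FPKM, Chil3 at 656 and 739 FPKM, and Plac8 had a log2 difference of −0.45. Of the 12 macrophage and Kupffer cell markers none was higher and Clec4f was lower, at 1117 and 753 FPKM, with a median log2 difference of −0.23. Adgre1 was at 162 and 165 FPKM, Cd68 at 646 and 679 FPKM, and Mertk had a log2 difference of 0.37. Of 8 dendritic cell markers that passed the filter, Clec9a was higher (3.67 and 6.70 FPKM) and none was lower, with Flt3 at 4.31 and 4.09 FPKM, Zbtb46 at 4.50 and 5.92 FPKM and Xcr1 at 2.02 and 2.22 FPKM. The part of these cells in the Itgam and Itgax values was not tested.

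Itga4 (ENSMUSG00000027009, chr2:79255426-79333123, plus strand) encodes CD49d, which pairs with β1 as VLA-4, a receptor for VCAM-1 and fibronectin, and with β7 as a gut-homing receptor. It was higher in the knockout, at 14.9 FPKM against 7.16 FPKM, a log2 difference of 1.02 (0.89 to 1.15) or 2.03-fold. It lay in the group of the longest transcripts, whose median log2 difference was 0.49, and with that length trend removed its value was 0.53, short of 1.5-fold. Its β1 partner Itgb1 was at 146 and 163 FPKM, so the ratio of Itga4 to Itgb1 was 0.049 in the control and 0.091 in the knockout. The log2 change of that ratio was 0.90 (0.76 to 1.04), and 0.49 with the length trend removed. The end of Itga4 overlaps Cerkl on the opposite strand, with 10.1% of its windows shared. Cerkl was at 8.89 and 11.2 FPKM, and the strand setting of the counting is not given in the sources used here.

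Itgb7 (ENSMUSG00000001281, chr15:102215995-102231944, minus strand) encodes the β7 chain of lymphocytes, which pairs with α4 and αE. Its level was 38.0 FPKM in the control and 35.7 FPKM in the knockout, and the log2 difference of −0.11 had an interval that included 0 (−0.24 to 0.015) and was 0.089 when the libraries were scaled to an equal FPKM sum. Its level exceeded that of both its α partners in both libraries. Itgb7 was 5.31 times Itga4 in the control and 2.40 times in the knockout, and the log2 change of the ratio of Itga4 to Itgb7 was 1.15 (0.96 to 1.33).

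Itgae (ENSMUSG00000005947, chr11:73090583-73147446, plus strand) encodes CD103, the E-cadherin-binding chain of tissue-resident T cells and some dendritic cells. It was at 0.910 FPKM in the control and 1.33 FPKM in the knockout, a log2 difference of 0.48 (−0.15 to 1.11). The interval included 0, and the value was 0.67, past 1.5-fold, when the libraries were scaled to an equal FPKM sum. Haspin, which lies within Itgae on the opposite strand, was at 0.725 and 0.918 FPKM.

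Lymphocyte markers were read beside Itga4, Itgb7 and Itgae. Of 13 T and NK cell markers that passed the filter, Cd4 and Prf1 were higher and Cd3g was lower, with a median log2 difference of 0.18. All 15 markers of the list, those under the filter included, summed to 245 and 273 FPKM. Cd3d was at 7.90 and 8.96 FPKM, Cd3e at 8.02 and 9.88 FPKM, Cd3g at 39.7 and 25.5 FPKM and Prf1 had a log2 difference of 1.57. Their part in the integrin values was not tested.

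Itga2b (ENSMUSG00000034664, chr11:102453297-102470122, minus strand) encodes αIIb, the CD41 chain of platelets and megakaryocytes. Its level was 8.25 FPKM in the control and 7.67 FPKM in the knockout, a log2 difference of −0.13 (−0.37 to 0.11) whose interval included 0 and which was 0.072 when the libraries were scaled to an equal FPKM sum. Its partner Itgb3, which other cells also carry, was at 6.16 and 7.85 FPKM, and the ratio of Itga2b to Itgb3 was 1.34 in the control and 0.977 in the knockout. The log2 change of that ratio was −0.46 (−0.77 to −0.14), and −0.15 with the length trend removed. Of 10 platelet and megakaryocyte markers, 4 passed the filter, with Gp1bb higher (0.735 and 1.37 FPKM) and none lower. Gp1bb passed only through the knockout library, and its interval included 0 (−0.14 to 1.73). Pf4 was at 64.5 and 51.4 FPKM, Ppbp at 1.54 and 2.24 FPKM, Gp1ba at 0.236 and 0.525 FPKM, and Gp6 was listed at 0 in both libraries. Apart from Pf4 and Itgb3, the platelet markers were thus below Itga2b in both libraries.

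**Figure D3:**
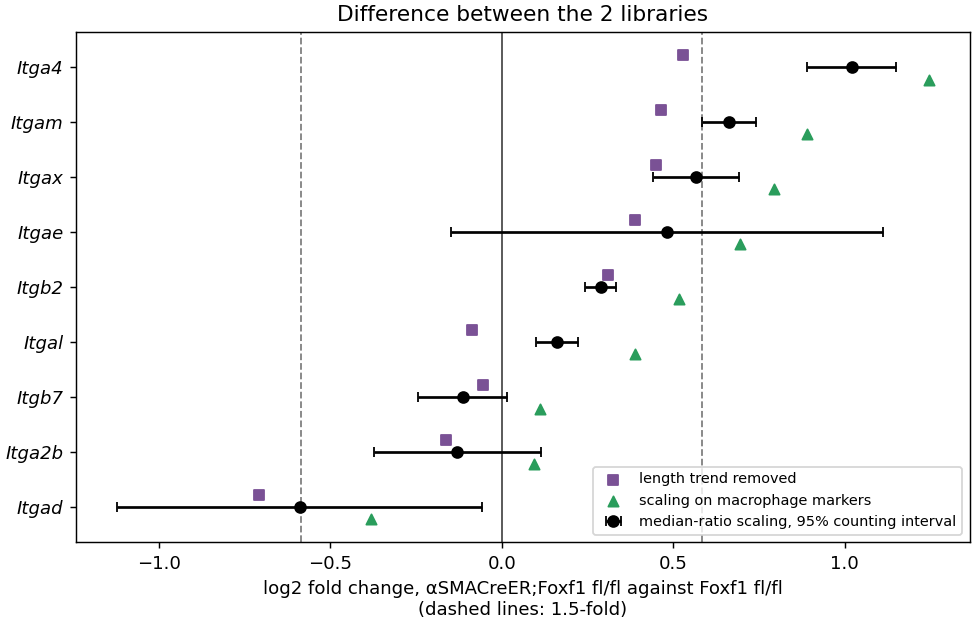
Log2 difference, knockout over control, of the 9 integrin genes (black points, median-ratio scaling) with approximate 95% counting intervals. Squares show the values with the length trend removed, triangles those scaled on macrophage markers, and dashed lines the 1.5-fold threshold. On the black points Itga4 (1.02) and Itgam (0.66) lay past the threshold on the higher side and Itgad (−0.59) on the lower side.

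Differences ran with transcript length over all genes. When the tested genes were put into 20 groups by their longest transcript, the median log2 difference was −0.36 in the group of the shortest transcripts and 0.49 in that of the longest. The longest transcript of Itga4 had 9767 bases. With the median of each gene's own length group subtracted, the log2 difference was 0.53 for Itga4, 0.46 for Itgam and 0.45 for Itgax, all short of 1.5-fold, whereas Itgad was at −0.71. The log2 change of the ratio of Itga4 to Itgb7 was 0.58 on that scale, against 0.55 for Itgam to Itgal. In the marker and ligand lists, Cx3cr1 (0.50), Vwf (0.26), Clec4f (−0.50) and Cd3g (−0.57) also fell short of 1.5-fold on that scale. So did the neutrophil markers Retnlg (−0.58) and Mmp8 (−0.51) and the mast cell and basophil markers Tpsb2 (−0.40) and Mcpt8 (−0.30). Higher only on that scale were the T and NK cell marker Nkg7 (0.68), the platelet marker Ppbp (0.84) and the dendritic cell marker H2-DMb2 (0.59). The part of transcript length in the differences was not tested further.

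**Figure D4:**
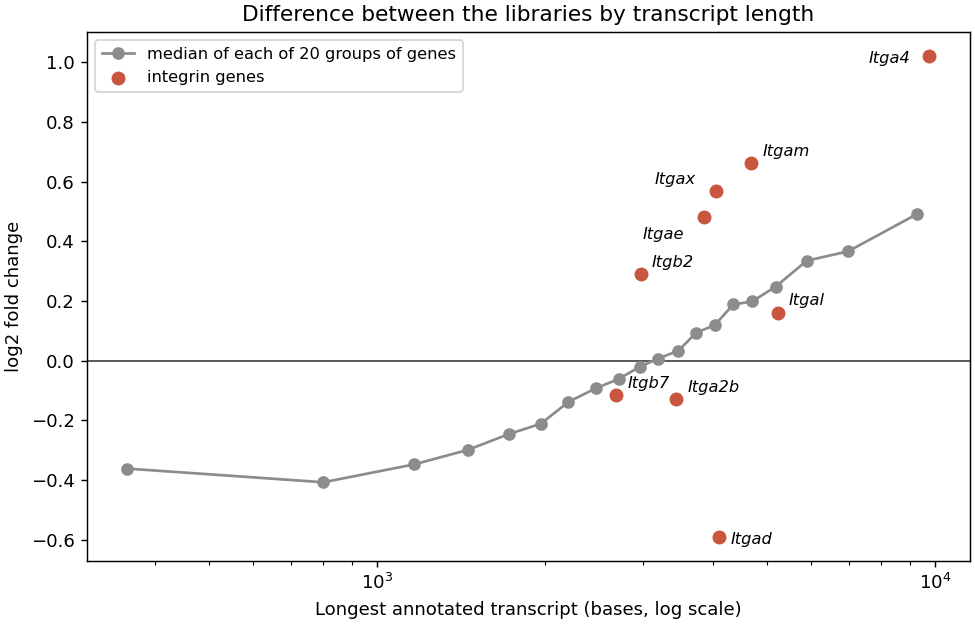
Log2 difference, knockout over control, against the longest annotated transcript in bases (log axis), for the 9 integrin genes and for the medians of the 20 length groups of all tested genes. The medians run from −0.36 in the shortest group to 0.49 in the longest, and Itga4 (1.02) lies above the line at its right end.

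The genes that work with these integrins were counted in the same way. Of 15 ligands and counter-receptors that passed the filter, Fn1, Jam2 and Vwf were higher and Fga, Fgb and Fgg were lower, with a median log2 difference of 0.00047. Fibronectin (Fn1), a ligand of α4β1, was at 127 FPKM in the control and 319 FPKM in the knockout. The fibrinogen γ chain (Fgg), part of the ligand of αIIbβ3 and Mac-1, was at 153 and 52.6 FPKM. Fibrinogen is made by hepatocytes, and all 6 hepatocyte markers, of which Fgb is itself one, were lower in the knockout, with sums of 3170 and 1183 FPKM. The part of hepatocytes in the fibrinogen values was not tested. Icam1, the main ligand of LFA-1, was at 324 and 330 FPKM, Icam2 at 38.6 and 41.9 FPKM and Icam4 at 2.62 and 2.69 FPKM.

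Of 12 genes of inside-out activation, Tln1 (talin) was higher, at 41.8 and 69.0 FPKM, and none was lower, with a median log2 difference of 0.087. With the length trend removed, the log2 difference of Tln1 was 0.21 and that of Rasgrp2 was −0.94, so that the former was no longer higher and the latter was lower. Kindlin-3 (Fermt3) was at 71.1 and 64.2 FPKM and Rap1a at 29.9 and 31.9 FPKM, and Rasgrp2, an activator of Rap1, had a log2 difference of −0.45. Of 14 genes of outside-in signalling none reached 1.5-fold, with a median log2 difference of 0.052. Syk was at 135 and 160 FPKM, the adaptors Tyrobp and Fcer1g at 1754 and 1344 FPKM and at 879 and 661 FPKM, and Pxn (paxillin) had a log2 difference of 0.54.

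**Figure D5:**
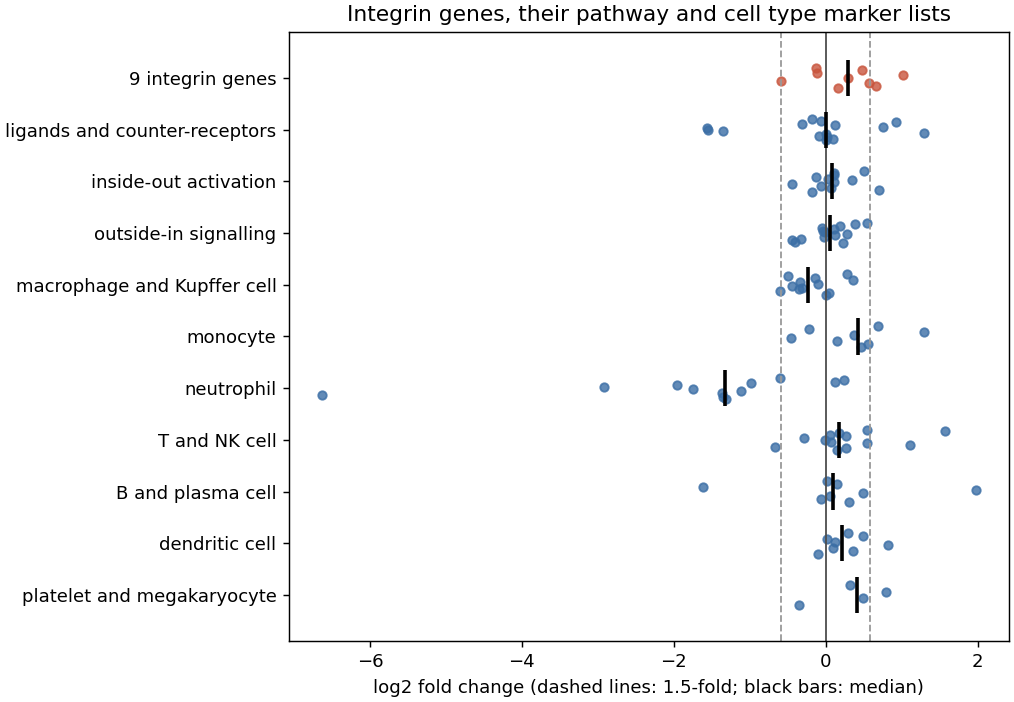
Log2 difference, knockout over control, of each gene past the filter (points) and the median of each list (black bars), for the 9 integrin genes and for pathway and marker lists. The point at the far left is Ly6g, listed at 0 in the knockout, so its place there is set by the added 0.1. The list medians include −1.33 for neutrophil markers, −0.23 for macrophage and Kupffer cell markers, 0.29 for the integrin genes and 0.42 for monocyte markers.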

How the data were processed

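RNA of adherent liver cells was pooled within each genotype, giving 1 library each. The authors mapped single-end reads by TopHat, and the FPKM values they deposited are Cufflinks estimates for Ensembl genes, and the submitters' processing notes name mm10. Fold changes of the study came from a separate DESeq quantification, not used here. The versions of TopHat and Cufflinks are not given in the sources used here. Gene IDs were matched to GENCODE M21 (36490 of 38320 entries, 95.2%). For a symbol with several entries the one with the highest mean FPKM was kept, and 3 entries with a status other than OK were left out. Knockout values were divided by the median ratio of 12011 genes (1.02), and log2 was taken after adding 0.1. The 1.5-fold threshold followed the study, which also set a limit on the false discovery rate that could not be applied here. Without replicates no test across samples was possible and no p-value is given. Read numbers were inferred from the steps between the lowest FPKM values, taking fragments of 200 bases and the longest transcript. Sequence windows of 75 bases and promoters came from GENCODE M21 and RefSeq (GRCm38.p6). The procedure was tested on simulated data.

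All 9 members and the pairing chains Itgb1 and Itgb3 were to be named, with the first 3 genes of each list, its largest rise and fall among genes past the filter (mean FPKM of 1 or more), and genes overlapping a member. 1 gene that this rule names is not reported here. Genes named to account for a count of 5 or fewer, and markers listed at 0, were chosen after their values were seen. So were genes named for passing the filter only through 1 library. The same holds for genes named because removing the length trend moved them across 1.5-fold. The members and lists were chosen with earlier results of these data known. Alternatives changed pseudocount, scaling, filter, threshold, repeated entries and transcript length. Foxf1 was not analysed here. Python 3.11.15, numpy 2.4.6, pandas 2.3.3 and matplotlib 3.10.9 were used.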

Additional observations from a re-analysis of the deposited data

How the results depend on the processing

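No replicate could be left out. No paired analysis was possible because there was a single control and a single knockout library. Under 7 alternatives of pseudocount, scaling and length Itga4 and Itgam kept their direction, and both stayed past 1.5-fold in 6, the exception being removal of the length trend (0.53 and 0.46). Itgad kept its direction in 7 and stayed past 1.5-fold in 2, Itgax passed it in 4 and Itgae in 2. Summing repeated entries could not move a member, since each had 1 entry. The number of members past 1.5-fold was 3 (2 higher and 1 lower). It was 4 (all higher, Itgae included) with an equal FPKM sum or scaling on macrophage markers. It was 1 (lower) with the length trend removed and 1 at a threshold of 2-fold. The median log2 difference of 0.29 was 0.49 when both libraries were given an equal FPKM sum and 0.52 when scaled on macrophage markers. These scalings moved the median of all genes to 0.21 and 0.23. Under them Itgb7 (0.089 and 0.11) and Itga2b (0.072 and 0.095) changed sign, as did Itgal (−0.087) with the length trend removed. With an equal FPKM sum 21.9% of all genes were higher and 8.72% lower. For scaling on macrophage markers, removal of the length trend and the 2-fold threshold the share of all genes was not counted. The member counts under those settings therefore cannot be set against a background. With the median in place of the longest transcript, the estimated control reads fell from 906 to 91 for Itgb7, from 799 to 141 for Itgax, from 657 to 145 for Itga4 and from 256 to 36 for Itga2b. Intervals were then wider (0.74 to 1.30 for Itga4, 0.27 to 0.86 for Itgax), and 5 members again lay above 0, 1 below and 3 across 0. The matching share of all genes was not counted here either.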

Other observations

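Of 8 B and plasma cell markers Pax5 was higher (2.40 and 9.92 FPKM) and Jchain lower (78.8 and 26.0 FPKM), with Cd79a at 24.6 and 24.0 FPKM and Cd79b at 23.3 and 24.7 FPKM. The 6 endothelial markers stayed within 1.5-fold, with sums of 375 and 438 FPKM. Of 6 mast cell and basophil markers 2 passed the filter, Tpsb2 (4.17 and 2.49 FPKM) and Mcpt8 (1.63 and 0.976 FPKM), and both were lower. Mcpt8 passed only through the control library, and its interval included 0 (−1.99 to 0.58), while Ms4a2 was listed at 0 in both libraries. Of 8 stellate cell and myofibroblast markers that passed the filter, Des was higher and none was lower. Among the 6 hepatocyte markers, Alb was at 2292 and 912 FPKM, Ttr at 322 and 86.8 FPKM and Apoa1 at 261 and 84.2 FPKM.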
